A study of Mus musculus with 6 samples.

Results

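Lipocalin 2 and the acute-phase genes are a group of secreted plasma and tissue proteins; 7 were listed here: Lcn2, Saa3, Orm1, Hp, Serpina3n, Cp and C3. Members were taken by gene symbol from the probe annotation supplied with the value table, using each probe that carries exactly 1 symbol. This gave 7 probes of 38467, for 5 of the 7 genes: 1 probe each for Lcn2, Saa3 and Orm1, and 2 each for Hp and Cp. No probe carried Serpina3n or C3 as its single symbol, so these genes were not analysed here. The members were chosen by their role as acute-phase genes with the dexamethasone and vehicle log2 ratios of these arrays, above all those of Lcn2, already known, so the values below describe them and carry no test.

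The cells were C3H10T1/2, a multipotent mesenchymal cell line of the mouse, used as a model of fat, muscle, cartilage and bone precursors. The treated group was given 1 µM dexamethasone, a synthetic steroid agonist of the glucocorticoid receptor, for 90 minutes; the vehicle group was given DMSO, and its samples are titled with the same 90 minutes. Both groups grew in DMEM with 10% FBS, and each had 3 cultures described as biological replicates, all of 1 cell line. Each culture's RNA, in Cy3, was hybridised on its own two-colour array against a common pool in Cy5, made from cells of several treatments: the sample labels name DMSO, dexamethasone and myostatin, while the design text of the series speaks of vehicle and treated cells without myostatin.

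Acute-phase proteins are made mainly in the liver when infection or injury releases cytokines. IL-6 family cytokines act through STAT3, IL-1 and TNF act through NF-kappaB, and C/EBP factors and the glucocorticoid receptor act on many of the same promoters. Several members are also made outside the liver, among them Lcn2 and, in the mouse, Saa3. Lcn2 binds the iron-carrying siderophores of bacteria, Saa3 is a lipoprotein-associated amyloid A protein, Orm1 carries small lipophilic molecules, Hp binds free haemoglobin and Cp is a copper-carrying ferroxidase.

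The values are read as log2 ratios of sample and pool, so they compare arrays for 1 probe and say nothing of how abundant one gene is beside another. The labels name the dyes and leave the direction of the ratio unstated. Sample over pool is likely, since 5 of 6 textbook glucocorticoid targets (Dusp1, Fkbp5, Per1, Tsc22d3, Sgk1 and Zbtb16) were higher with dexamethasone when read that way, but it is not settled. If it ran the other way, "higher" and "lower" would swap throughout. The lowest Spearman correlation between arrays was -0.33, between dexamethasone 3 and vehicle 2. In such bulk samples fewer cells expressing a gene and less RNA per cell cannot be told apart.

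Quality differed between the 6 arrays. The number of missing values was 1695 to 4290 on the dexamethasone arrays and 552 to 932 on the vehicle arrays, and the number of arrays limits the precision of every value. Values equal at 3 decimals to the log2 ratio of whole numbers from 1 to 10, as arise where a spot is only a few intensity units bright, accounted for 3.79%, 10.5% and 12.7% of dexamethasone 1, 2 and 3, and 1.86%, 1.95% and 7.73% of vehicle 1, 2 and 3. The arrays were split by this share into 2 sets of 3, a size fixed beforehand. Dexamethasone 2 and 3 with vehicle 3 had the largest shares, and dexamethasone 1 with vehicle 1 and 2 made the other set. Across all 27046 features (genes, or unnamed probes, with at least 2 values per group) the median dexamethasone minus vehicle difference was 0.32. It was 0.02 once each array was centred on its median. The limma fit over all these features called 0 of them (0%) at a Benjamini-Hochberg adjusted p under 0.05, and 1468 (5.43%) at an unadjusted p under 0.05, 1199 higher (4.43%) and 269 lower (0.995%) with dexamethasone.

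The promoters of Lcn2 and Saa3 are shown because among the members Lcn2 had the widest difference between the groups and Saa3 the single value farthest from 0 with dexamethasone. RefSeq promoter sequences on GRCm38.p6, 250 bases before to 50 after the annotated start, were found for 5 of the 7 listed genes: Lcn2, Saa3, Serpina3n, C3 and Cp (2 starts). Capitals mark matches to ACANNNTGT, the core of the glucocorticoid response element, and to TTNNGNAA, a C/EBP motif; both strands were searched, and no match of one overlapped the other in these sequences. The Lcn2 window is chr2:32387690-32387989 and the Saa3 window chr7:46715627-46715926, both on the minus strand.
Lcn2: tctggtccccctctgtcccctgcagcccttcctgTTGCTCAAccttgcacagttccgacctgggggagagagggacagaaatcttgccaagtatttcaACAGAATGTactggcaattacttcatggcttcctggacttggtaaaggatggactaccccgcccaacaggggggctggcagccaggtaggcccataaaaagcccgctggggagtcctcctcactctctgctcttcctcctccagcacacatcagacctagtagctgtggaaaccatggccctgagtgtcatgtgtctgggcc
Saa3: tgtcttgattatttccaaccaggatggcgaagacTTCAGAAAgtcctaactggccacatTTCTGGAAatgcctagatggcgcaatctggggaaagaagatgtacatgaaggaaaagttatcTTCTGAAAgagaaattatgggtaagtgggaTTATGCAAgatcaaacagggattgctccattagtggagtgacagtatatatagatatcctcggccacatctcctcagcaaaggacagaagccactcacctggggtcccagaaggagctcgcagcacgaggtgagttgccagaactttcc

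In the Lcn2 promoter the core motif reads ACAGAATGT and begins at -152 from the start; 6.85% of 32851 RefSeq promoters of this length hold such a match. The Serpina3n promoter holds one as well, ACAGCTTGT at -76, while the letters are not in the windows of Saa3, Cp and C3. The C/EBP motif is common, with a match in 40.7% of promoters. It is present in the windows of all 5 genes, at 4 positions in Saa3 and at 1 in Lcn2. A kappaB-like motif and a STAT motif were searched as well and are not marked in the sequences above. The kappaB-like motif has a match in 19.2% of promoters. It is present in Lcn2 at -102, in Serpina3n at -171 and -42 and in C3 at -196, but not in Saa3 or Cp. The STAT motif, with a match in 8.3% of promoters, is absent from the windows of all 5 genes. A match to any of these motifs describes letters and is not evidence of binding.

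Lcn2 (probe mMC014819) was far higher with dexamethasone. Its log2 ratios were 0.51, 3.57 and 3.04 on dexamethasone 1, 2 and 3, against -3.46, -2.37 and -2.03 on vehicle 1, 2 and 3. All 3 dexamethasone values lay above 0, where sample and pool are equal, and all 3 vehicle values lay below it, so the groups did not overlap. The mean was 2.37 ± 1.64 in dexamethasone and -2.62 ± 0.75 in vehicle (SD, n = 3 each), a difference of 4.99 ± 0.93 (moderated SE), or 31.9-fold. The gap between the lowest dexamethasone array and the highest vehicle array is set by dexamethasone 1, which stood apart from the other dexamethasone arrays.

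The size of the Lcn2 difference placed it at rank 159 of 27046 features counted from the highest. The low-signal filter removed every probe that, on at least 1 array, lacked a value, held a whole-number ratio as above or exceeded 10 in size. Among the 17152 features left by a low-signal filter, it was at rank 3. On those features its vehicle mean was at rank 23 from the lowest, and its dexamethasone mean at rank 238 from the highest. With the sign turned these ranks would count from the other end. In this reduced fit limma called 26 features higher (0.152%) and 3 lower (0.0175%) with dexamethasone, and Lcn2 was not among them. None of the Lcn2 values was a whole-number ratio, and on no array did more than 1 other probe hold the same value.

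The Lcn2 difference kept its sign and its gap under each scaling and in each array set. With the array medians set to 0 the values were 0.63, 3.00 and 2.63 on dexamethasone 1, 2 and 3, against -3.36, -2.25 and -2.19 on vehicle 1, 2 and 3. Within the set with the larger share of whole-number ratios, dexamethasone 2 and 3 exceeded vehicle 3 by 5.34, and within the other set dexamethasone 1 exceeded vehicle 1 and 2 by 3.42. When 1 array was left out, the difference ran from 4.40 without dexamethasone replicate 2 to 5.93 without dexamethasone replicate 1.

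**Figure D1:**
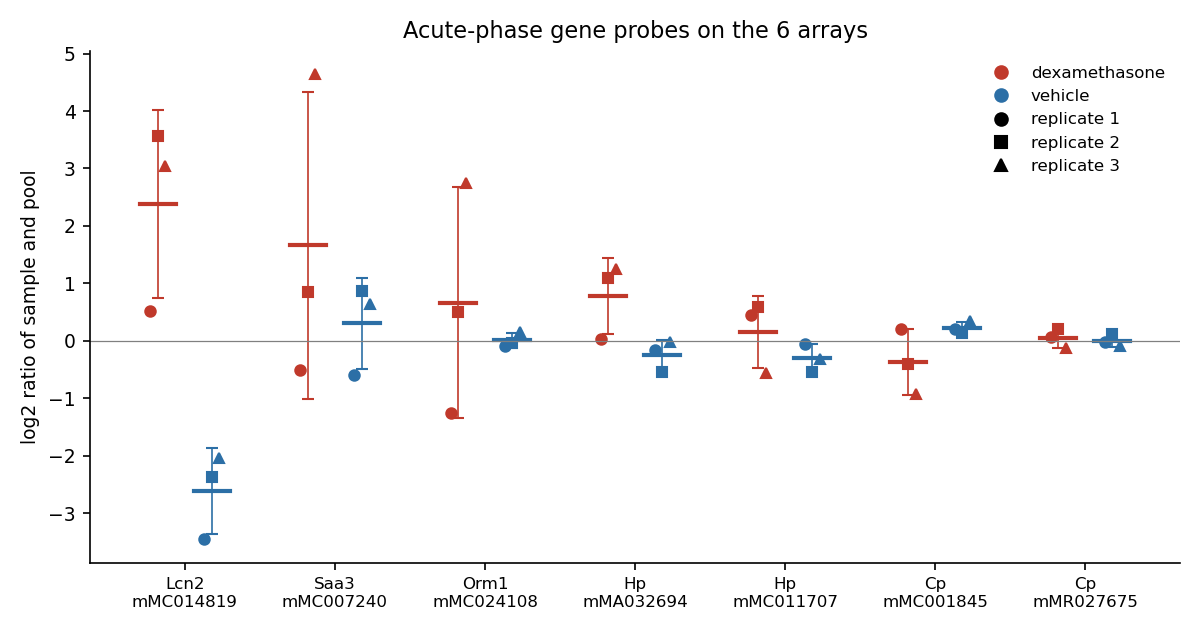
Log2 ratio of sample and pool (y axis) for each of the 7 probes (x axis), dexamethasone left of vehicle; symbols are the 3 replicates, thick bars the mean and thin bars the SD. The groups of Lcn2 and of the Hp probe mMA032694 lie on opposite sides of 0, far apart for Lcn2 and nearly touching for Hp, and the high means of Saa3 and Orm1 with dexamethasone come with a replicate 3 value of 4.64 and 2.76.

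Saa3 (probe mMC007240) did not separate the groups. Its log2 ratios were -0.51, 0.85 and 4.64 on dexamethasone 1, 2 and 3, against -0.61, 0.87 and 0.64 on vehicle 1, 2 and 3. Only dexamethasone 3 lay above the vehicle values. The difference was 1.36 ± 1.43 (moderated SE) and became -0.13 without dexamethasone replicate 3. The value on dexamethasone 3 corresponds to a ratio of 25.0. It was held by 31 other probes of that array, while the 20 neighbouring values, at steps of 0.001, were held by 0 probes on average. The value on dexamethasone 2, a ratio of 1.80, was held by 64 other probes against 6.5 per neighbouring value. Ratios of small whole numbers give repeated values of this kind; their part in the result was not tested.

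Orm1, orosomucoid 1 (probe mMC024108), also had widely spread dexamethasone arrays. Its log2 ratios were -1.25, 0.49 and 2.76 on dexamethasone 1, 2 and 3, against -0.09, -0.05 and 0.16 on vehicle 1, 2 and 3. The vehicle arrays lay within 0.24 of each other, while the dexamethasone arrays spanned 4.01 and fell on both sides of them. The difference was 0.66 ± 1.04 (moderated SE) and turned to -0.39 without dexamethasone replicate 3. The value on dexamethasone 3 was a ratio of 6.75, held by 33 other probes against 0.55 per neighbouring value. The array also lists Orm2, a close paralog; whether the Orm1 probe is read by both was not tested.

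Hp, haptoglobin, was measured by 2 probes that disagreed. Probe mMA032694 read 0.03, 1.08 and 1.25 on dexamethasone 1, 2 and 3, against -0.16, -0.54 and -0.03 on vehicle 1, 2 and 3. Its groups did not overlap, with 0.03 as the lowest dexamethasone value against -0.03 as the highest vehicle value, as for 10.3% of probes with all values in that direction. Its difference was 1.03 ± 0.39 (SE of the probe-level fit). Probe mMC011707 read 0.44, 0.59 and -0.57 on dexamethasone 1, 2 and 3, against -0.06, -0.54 and -0.31 on vehicle 1, 2 and 3. There the dexamethasone 3 value lay below all 3 vehicle values, and the difference was 0.46 ± 0.37 (SE of the probe-level fit). On dexamethasone 3 the probes thus stood at 1.25 and -0.57, and the first of these values was held by 46 other probes against 4.8 per neighbouring value.

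Averaged over its probes, Hp stood at 0.47 ± 0.32 in dexamethasone and -0.27 ± 0.23 in vehicle (SD, n = 3 each). The difference was 0.74 ± 0.26 (moderated SE), or 1.68-fold, and the averaged groups did not overlap. They overlapped once each array was centred on its median, where dexamethasone 3 read -0.07 and vehicle 1 read -0.01 and the difference was 0.44. The Hp difference was above 0 in both array sets, at 0.76 in the set of dexamethasone 2 and 3 and 0.56 in that of dexamethasone 1.

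Cp, ceruloplasmin, was the measured member with a difference below 0. Probe mMC001845 read 0.21, -0.40 and -0.93 on dexamethasone 1, 2 and 3, against 0.21, 0.14 and 0.34 on vehicle 1, 2 and 3. Dexamethasone 2 and 3 lay below the vehicle arrays, and dexamethasone 1 lay among them. Probe mMR027675 read 0.07, 0.20 and -0.13 on dexamethasone 1, 2 and 3, against -0.03, 0.11 and -0.10 on vehicle 1, 2 and 3, so its groups covered nearly the same range. The probe differences were -0.60 ± 0.33 and 0.05 ± 0.17 (SE of the probe-level fit). The first probe is annotated to fewer transcript records than the second, and the files do not say which part of the gene each reads. Averaged, Cp stood at -0.16 ± 0.34 in dexamethasone and 0.11 ± 0.02 in vehicle (SD, n = 3 each), a difference of -0.27 ± 0.23 (moderated SE). The difference was -0.58 after median centring and -0.62 after quantile normalization, and 0.033 within the set of dexamethasone 1, vehicle 1 and vehicle 2.

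Over the 5 measured members, 4 differences were above 0 and 1 was below it, and with the sign turned 1 would be above and 4 below. For comparison, 68.2% of all features had a difference above 0 and 31.8% one below 0, shares that would also change places. The members' median was 0.74, against 0.32 for all features. It was -0.09, against 0.18 for all features, when dexamethasone replicate 3 was left out. When dexamethasone replicate 1 was left out it was 1.62, against 0.57. The gene-level groups did not overlap for 2 members, Lcn2 and Hp, both higher with dexamethasone, beside 9.95% of the 22880 features with values on all arrays in that direction and 7.29% in the other. Only Lcn2 remained without overlap after median centring or quantile normalization. The next largest difference after Lcn2, at 4.99, was that of Saa3, at 1.36.

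**Figure D2:**
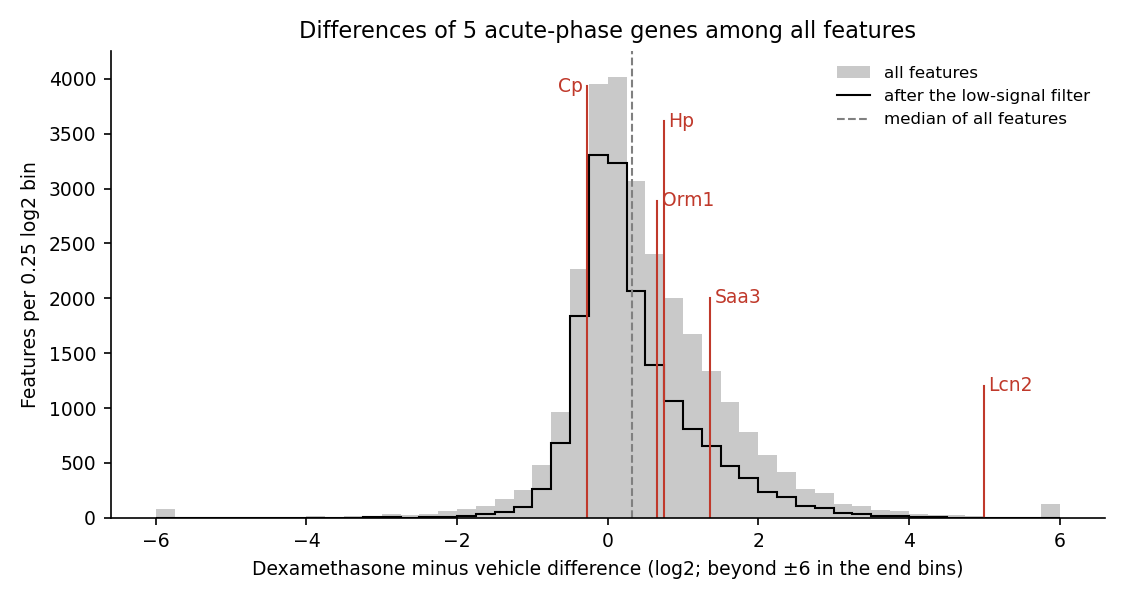
Number of features (y axis) by dexamethasone minus vehicle difference on the log2 scale (x axis), for all features in grey and for those left by the low-signal filter as a line; red lines mark the 5 genes at heights chosen for legibility. Lcn2, at 4.99, lies in the far right tail, while Cp, Orm1, Hp and Saa3, from -0.27 to 1.36, lie within the bulk.

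The members' spread was unequal between groups. The SD over dexamethasone arrays exceeded that over vehicle arrays for all 5 members, as it did for 84.2% of features. Dexamethasone 1 was the lowest of the dexamethasone arrays for 4 of the 5, the exception being Cp, and for 58.2% of features. The array medians moved in the same way, at -0.12, 0.57 and 0.41 on dexamethasone 1, 2 and 3; the part of array quality in the members' spread was not tested.

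**Figure D3:**
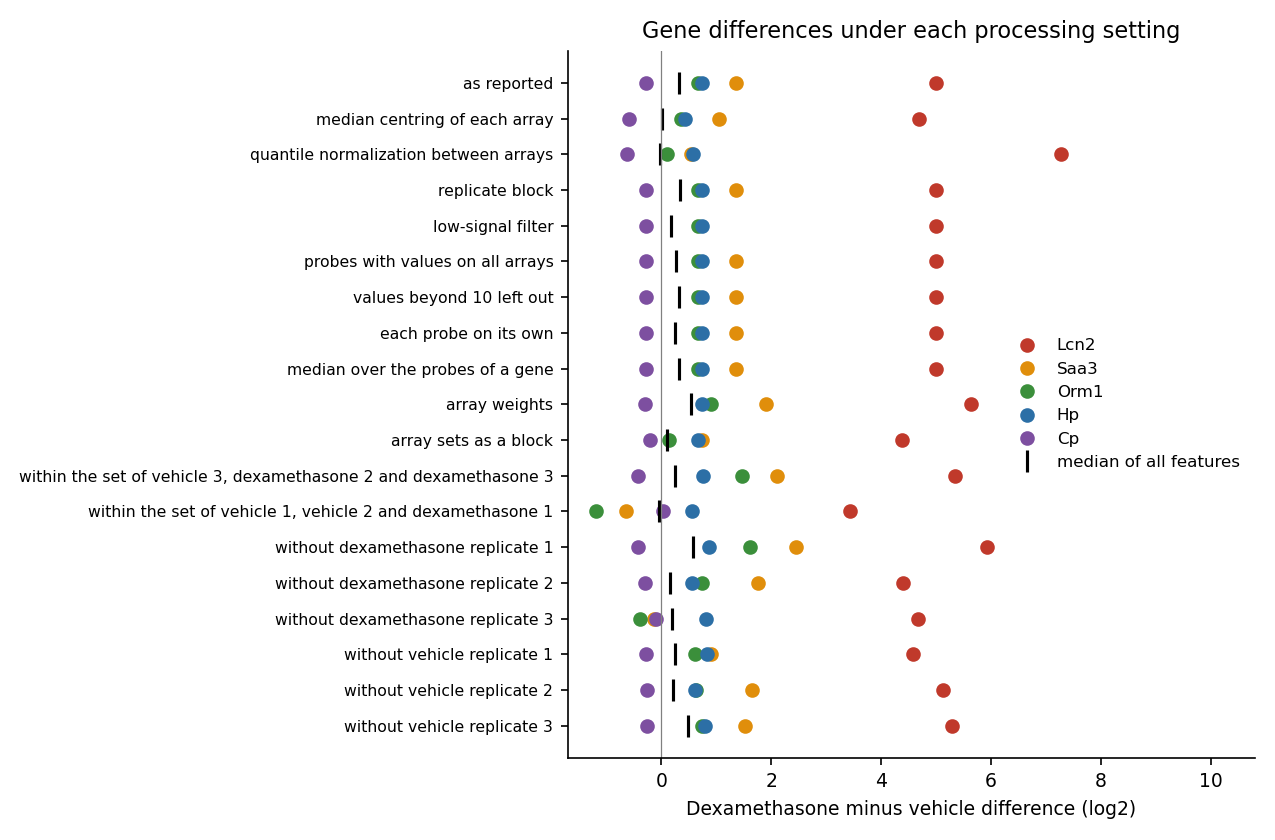
Dexamethasone minus vehicle difference on the log2 scale (x axis) of each measured gene under each processing setting (rows), with the median of all features as a black tick; Saa3 has no point under the low-signal filter, which removed its probe. Lcn2 stays between 3.42 and 7.27, whereas Saa3 and Orm1 fall below 0 without dexamethasone replicate 3 and within the set of dexamethasone 1.

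The 3 profiles most like that of Lcn2 over the 6 arrays, by root mean square difference among 16509 other named genes with all values, were Kcnq3 (0.85), Bspry (0.99) and Med17 (1.02). Kcnq3, a potassium channel subunit, averaged 2.22 ± 1.23 in dexamethasone and -1.53 ± 0.87 in vehicle (SD, n = 3 each). Those distances were wide beside the ones for Cp, whose nearest profile, Ppp6c, a phosphatase catalytic subunit, was 0.04 away. The nearest profile was 0.26 away for Saa3 (Tagln), 0.23 for Orm1 (Ydjc) and 0.12 for Hp (B230217O12Rik).

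The surrounding genes were counted on lists written from general knowledge, with earlier results of these arrays known. For comparison with each list, 68.2% of all features had a difference above 0. Among transcription factors of the acute-phase response, 10 of 12 were measured; 8 had a difference above 0 and 2 below, with a median of 0.55. In the fit over all features 0 passed, while at an unadjusted p under 0.05 4 were higher and 2 lower. Over all features that fit had 4.43% higher and 0.995% lower at the same threshold. Cebpb, which drives many acute-phase promoters, read 1.23, 1.57 and 1.85 on dexamethasone 1, 2 and 3, against -1.67, -1.80 and -1.44 on vehicle 1, 2 and 3. Its groups did not overlap and differed by 3.18 ± 0.24 (limma SE, adjusted p = 0.141). It passed in the fit after the low-signal filter (limma adjusted p = 0.0358). Its relative Cebpd differed by 2.16 ± 0.35 (adjusted p = 0.330), and Nfkbiz, a nuclear IkappaB protein that acts as a cofactor at some NF-kappaB targets including Lcn2, by 0.97 ± 0.17 (adjusted p = 0.361). In each of the 3 the dexamethasone arrays lay above 0 and the vehicle arrays below it, as for Lcn2. That pattern was not particular to these genes: Dusp1, Fkbp5, Per1, Tsc22d3 and Il6ra had it too. Its share over all features was not counted.

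Of 21 cytokine and receptor inputs, all were measured; 7 differences were above 0 and 14 below, with a median of -0.14, and 0 passed. At an unadjusted p under 0.05 1 was higher and 3 lower, beside 4.43% and 0.995% of all features. Nr3c1, 1 of the 3 lower genes, is also counted on the transcription factor list. Il6ra, the IL-6 binding receptor chain, read 0.57, 0.23 and 0.80 on dexamethasone 1, 2 and 3, against -1.38, -1.18 and -1.10 on vehicle 1, 2 and 3. It differed by 1.76 ± 0.23 (limma SE, adjusted p = 0.228). Tlr2, a receptor for bacterial lipoproteins, differed by -1.01 ± 0.16 (adjusted p = 0.330) and Nr3c1, the glucocorticoid receptor itself, by -0.89 ± 0.32 (adjusted p = 0.732). For these last 2 genes all 3 dexamethasone values lay below all 3 vehicle values.

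Of 32 other acute-phase proteins 25 were measured, 15 with a difference above 0 and 10 below. Their median was 0.56, and 0 passed. At an unadjusted p under 0.05 4 were higher and 1 lower, beside 4.43% and 0.995% of all features. The metallothionein genes Mt2 and Mt1, which bind zinc and copper, differed by 3.08 ± 0.34 (adjusted p = 0.188) and 1.97 ± 0.40 (adjusted p = 0.446). The zinc importer gene Slc39a14 differed by 0.86 ± 0.17 (limma SE, adjusted p = 0.440). For these 3 genes every dexamethasone value lay above every vehicle value. The 4 measured amyloid A and orosomucoid relatives of Saa3 and Orm1 were named after their values were seen. Saa1 and Saa2 differed by -0.06 ± 0.23 and 0.003 ± 0.18, and Saa4 and Orm2 by -0.20 ± 1.07 and 1.37 ± 1.39 (limma SE), each within its SE of 0.

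Iron, copper and haem handling gave 18 measured genes of 19, 13 above 0 and 5 below, with a median of 0.15, and 0 passed. Of the Lcn2 receptors, Lrp2 (megalin) read 1.41, 1.52 and 4.64 on dexamethasone 1, 2 and 3, against -2.40, -1.34 and 0.59 on vehicle 1, 2 and 3. It differed by 3.58 ± 1.23 (limma SE, adjusted p = 0.732), and both of its probes were removed by the low-signal filter. Slc22a17, the other described receptor, differed by 0.61 ± 0.39 (adjusted p = 0.732). Ireb2, an iron-sensing RNA-binding protein, differed by -0.34 ± 0.17 (adjusted p = 0.732), with no overlap of the groups.

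In the lipocalin family 9 of 12 genes beside Lcn2 and Orm1 were measured, 7 above 0 and 2 below, with a median of 0.97; 0 passed. Ptgds, prostaglandin D synthase, read 3.22, 3.32 and 2.32 on dexamethasone 1, 2 and 3, against 0.29, -1.75 and -0.33 on vehicle 1, 2 and 3. Its difference was 3.55 ± 0.62 (limma SE, adjusted p = 0.369), and its probe was removed by the low-signal filter. The retinol carrier gene Rbp4, which is also a negative acute-phase protein, differed by 2.40 ± 1.67 (adjusted p = 0.732) and Lcn3 by -0.52 ± 0.22 (adjusted p = 0.732). Of the Serpina3 cluster 3 of 9 paralogs were measured, Serpina3a, Serpina3f and Serpina3b, with differences of 2.31 ± 1.34, 2.05 ± 1.14 and -0.02 ± 1.41 (limma SE) and 0 left by the low-signal filter. They give no reading of Serpina3n.

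Around C3, 23 of 29 complement genes were measured, 16 above 0 and 7 below, with a median of 0.62; 0 passed, and 0 were past an unadjusted p of 0.05 in either direction. C5ar1 (the C5a receptor) differed by 0.69 ± 0.39, Masp2 (a lectin pathway protease) by 0.87 ± 0.50 and C4b (a complement component) by 0.83 ± 0.49, each with a limma adjusted p of 0.732. Of 7 negative acute-phase proteins 6 were measured, 5 above 0 and 1 below, with a median of 1.17, and 0 passed. The low-signal filter left 2 of them. Apoa1 and Serpina6 differed by 0.39 ± 0.37 (limma adjusted p = 0.735) and 2.22 ± 1.42 (limma adjusted p = 0.732).

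**Figure D4:**
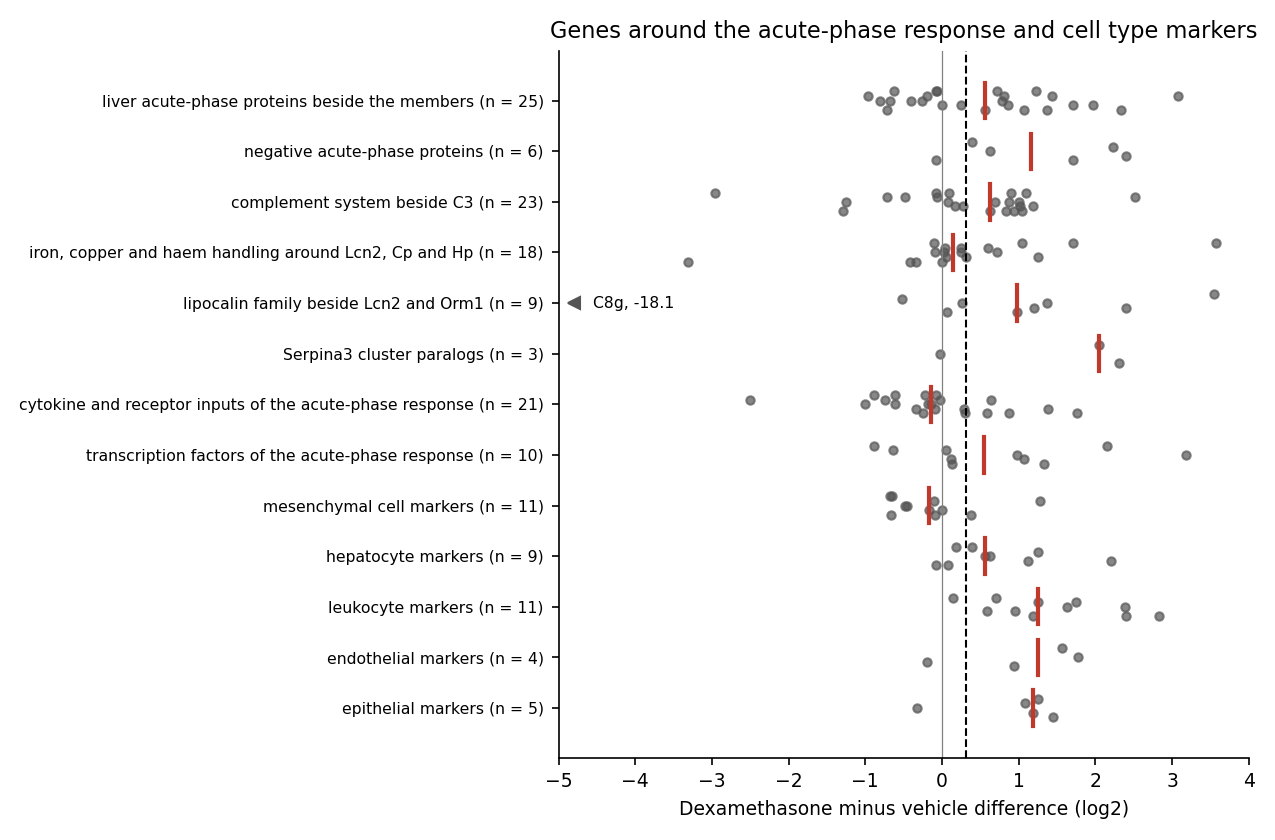
Dexamethasone minus vehicle difference on the log2 scale (x axis) of every measured gene (grey points) on each list (rows), with the list median in red, the median of all features, 0.32, as a dashed line, and C8g, at -18.1 and named after its value was seen, drawn as an arrow at the edge. The cytokine and mesenchymal lists have medians below 0, and the negative acute-phase, Serpina3, leukocyte, endothelial and epithelial lists have medians above 1.

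Ratios to a pool cannot show whether a marker is present, so the mesenchymal label could not be checked by level. Of 12 mesenchymal markers 11 were measured, 2 above 0 and 9 below, with a median difference of -0.17; their median log2 ratio ran from -0.18 to 0.15 over the dexamethasone arrays and from 0.09 to 0.24 over the vehicle arrays. The 13 leukocyte markers include genes of neutrophils, cells that store Lcn2 protein in granules. Of these markers 11 were measured and all 11 differences were above 0, beside 68.2% of all features, with a median of 1.25. The low-signal filter left 5 of them, with a median of 1.19, and not all of these were above 0. Over the 11 markers, the median log2 ratio ran from -0.96 to 1.82 on the dexamethasone arrays and from -0.82 to 0.68 on the vehicle arrays. Of 10 hepatocyte markers 9 were measured, 8 above 0, with a median of 0.56; their median log2 ratio ran from -0.61 to 1.49 over the dexamethasone arrays and from -0.38 to 1.21 over the vehicle arrays. The 4 measured endothelial markers had a median difference of 1.25, and their median log2 ratio ran from 0.03 to 2.73 over the dexamethasone arrays and from -0.48 to 1.13 over the vehicle arrays. The 5 epithelial markers had a median difference of 1.19, and their median log2 ratio ran from -0.78 to 2.50 over the dexamethasone arrays and from -0.55 to 0.46 over the vehicle arrays. The low-signal filter left 10 mesenchymal, 3 hepatocyte, 2 endothelial and 2 epithelial markers. None of these marker lists had a member past the adjusted threshold, and their part in the Lcn2 difference was not tested.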

How the data were processed

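The deposited value table was used as it stands. Its values have 3 decimals, and the authors' columns are not centred. The submitters' processing notes name limma alone, without version or settings. How background, normalization and weak spots were handled is not given in the sources used here. No scanner intensities were used. The deposited columns of vehicle 1 and 2 were read as log2 ratios. The deposited columns of the other 4 arrays hold some values beyond 100 in size, as a score may have and no log2 ratio gives. There were 15 on vehicle 3, and 2, 27 and 9 on dexamethasone 1, 2 and 3. How the authors made these large values before they were deposited is not given, beyond the name limma. These columns were read as log2 ratios too. If they hold a score, the differences and folds between the groups would compare unlike measures, which was not tested.

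Probes with 1 symbol (29456) were averaged per gene; 760 had several symbols and 8251 were unlisted, and these stayed as single features. RefSeq matching changed 0 symbols. A feature needed 2 values per group. The fit used R 4.3.3 and limma 3.58.1 (lmFit, eBayes; two-sided, Benjamini-Hochberg at 0.05) without a block, and was tested on simulated data. The simulated noise was independent between arrays and had the same SD in both groups. It therefore did not cover the unequal spread or the array sets of these data. An exact permutation test of 3 against 3 arrays cannot go below 0.1, so none was used. Members, lists and alternatives were chosen with earlier results of these data known; the motifs were chosen after the sequences were seen. By rule, the named genes were all members, per list the 3 smallest p or any that passed, and the 3 nearest profiles; Saa1, Saa2, Saa4, Orm2 and C8g were named outside it; the marker lists are given as counts and medians.

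The tested alternatives were median centring, quantile normalization, a replicate block, a low-signal filter (15355 probes removed), complete probes, leaving out values beyond 10, single probes, probe medians, array weights, the array sets and leaving out each array.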

Additional observations from a re-analysis of the deposited data

How the results depend on the processing

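The Lcn2 difference of 4.99 stayed above 0 under all 18 alternatives and moved by more than its replicate spread under 2: it was 7.27 after quantile normalization, where vehicle 1 read -11.9, and 3.42 within the set of dexamethasone 1, vehicle 1 and vehicle 2. It ran from 4.40 to 5.93 when 1 array was left out. Cp, at -0.27, was -0.58 after median centring and -0.62 after quantile normalization, and changed sign within that set, to 0.033. Hp, at 0.74, was 0.44 after median centring. Saa3 and Orm1 changed sign within the set of dexamethasone 1, vehicle 1 and vehicle 2, to -0.64 and -1.19. They also changed sign without dexamethasone replicate 3. The causes were not tested. The count of 2 members without overlap was 1 after median centring and 1 after quantile normalization. The count of 0 features past the adjusted threshold was 29 after the low-signal filter (26 higher, 3 lower). It was 5 on probes with values on all arrays. Both fits test fewer features. Among these, 4 and 1 were genes on the lists, counting the glucocorticoid targets used to judge the direction, and 0 were members. After the filter 3 of the 4 were such targets, and 1, Cebpb, was on the transcription factor list. With the replicate numbers as a block the Lcn2 difference was 4.99 and the count 0. Deviations of same-numbered arrays correlated at 0.28, -0.17 and 0.35. Those of dexamethasone 1 and vehicle 2 correlated at 0.33, and those of dexamethasone 2 and vehicle 3 at 0.28. The correlations followed the array sets, so they cannot show whether the numbers pair the cultures. Signal over background is unknown without scanner intensities.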
